A study of Homo sapiens with 6 samples.

Results

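Genes described as transcriptional targets of the tumour suppressor p53 were examined in Jurkat cells given the chemokine CXCL12 for 15 min. The set was a list of 30 gene symbols. Each was represented by its probe set in the deposited array table, found through the platform's gene symbols. Of the 30, 28 had a probe set, exactly 1 each, among 17687 named genes in the table. No probe set was named here for BTG2 or FDXR. PLK2 and SPATA18 were left out of the tests as dim, which left 26 genes. Dim means a mean log2 signal under 4.44, the lower 25% of all probe sets.

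p53 is a transcription factor that is stabilised when DNA is damaged or growth signals are abnormal, and it then switches on genes that halt the cell cycle, repair DNA or lead to cell death. Among its targets are its own inhibitors MDM2 and PPM1D, which close a negative feedback loop. Jurkat is an established human line of T-cell acute lymphoblastic leukaemia. Some members are partners or relatives of the pathway more than direct targets: TP53BP1 binds p53 at DNA breaks, CCNG2 is best known as a target of FOXO factors, and SERTAD1 is a regulator that binds the cell cycle kinase CDK4. The mitogen-responsive side of the list is PLK2, PLK3, BTG2, CDKN1A and GADD45A, which are also known to respond to growth signals without p53.

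The study compared 3 untreated with 3 CXCL12 arrays of Jurkat cells. All cells had been grown with 10% serum and then kept without serum for 90 min, and 1 group received CXCL12 at 100 ng/ml for 15 min. CXCL12 acts through the receptor CXCR4. The titles call the samples biological replicates. They do not say that the cultures were separate, so the p-values reflect variation among these samples only, and part of it may be technical. All samples come from 1 cell line. Values are log2 signals of a probe set, and differences are CXCL12 minus untreated on the log2 scale. Signals of different probe sets depend on their probes, so levels are not compared between genes.

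Median log2 signals of the 6 arrays ran from 6.18 to 6.22, and the number of arrays limits the precision. Untreated replicate 1 had the lowest mean correlation with the other arrays (0.982, against 0.987 to 0.989). All 12 T-lineage markers listed for Jurkat, such as CD3E and LCK, were above the dim limit, with mean signals from 8.26 to 11.4. Of 15 measured markers of B, myeloid, erythroid, fibroblast and epithelial cells, 3 were dim (MS4A1, LYZ and EPCAM) and 12 were not, with mean signals from 4.70 to 7.92. A signal above the limit was therefore not read as a detected transcript. With bulk RNA, fewer cells with a transcript and less of it per cell cannot be told apart.

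The promoter windows show which members hold a match to the p53 decamer, a run of letters in sites that p53 binds. A single match was counted, and a pair of decamers was not required. RefSeq windows (GRCh38.p14) of 250 bases before to 50 after a start site were searched on both strands. There were 35 windows for 24 members and 35116 windows in all. GADD45A, PHLDA3, RRM2B, TNFRSF10A, TNFRSF10B and TP53INP1 had no entry. The p53 decamer consensus occurred in 6 of the 35 member windows (17.1%) and in 6.63% of all windows. The 6 belong to AEN, DDB2, FAS, FDXR, PLK2 and SESN1. The windows of the 4 of these genes that were tested are shown because they let the p53 letters be set beside the array values. Capitals mark matches to the decamer and to GCGGGGGCG, a form of the site of EGR1, a transcription factor whose transcript rose in these cells.
DDB2, chr11:47214724-47215023, plus strand: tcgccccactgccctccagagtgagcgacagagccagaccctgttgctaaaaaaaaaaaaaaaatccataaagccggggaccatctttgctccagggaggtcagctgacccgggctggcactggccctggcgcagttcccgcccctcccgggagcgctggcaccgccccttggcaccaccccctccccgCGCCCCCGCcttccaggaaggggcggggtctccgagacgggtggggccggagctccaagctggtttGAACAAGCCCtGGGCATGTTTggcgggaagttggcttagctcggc
FAS, chr10:88991181-88991480, plus strand: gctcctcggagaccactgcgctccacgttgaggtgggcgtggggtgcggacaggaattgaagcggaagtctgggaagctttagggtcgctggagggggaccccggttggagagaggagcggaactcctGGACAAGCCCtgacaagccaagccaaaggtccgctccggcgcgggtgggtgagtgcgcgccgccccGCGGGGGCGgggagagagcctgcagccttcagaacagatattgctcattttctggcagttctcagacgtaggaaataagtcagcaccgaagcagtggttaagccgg
AEN, chr15:88621090-88621389, plus strand: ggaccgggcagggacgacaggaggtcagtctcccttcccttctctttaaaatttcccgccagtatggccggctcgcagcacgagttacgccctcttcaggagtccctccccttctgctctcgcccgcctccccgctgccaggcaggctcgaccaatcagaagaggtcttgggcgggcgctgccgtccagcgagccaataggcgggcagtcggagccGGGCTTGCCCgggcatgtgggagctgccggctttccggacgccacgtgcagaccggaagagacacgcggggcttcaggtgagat
SESN1, chr6:109008939-109009238, minus strand: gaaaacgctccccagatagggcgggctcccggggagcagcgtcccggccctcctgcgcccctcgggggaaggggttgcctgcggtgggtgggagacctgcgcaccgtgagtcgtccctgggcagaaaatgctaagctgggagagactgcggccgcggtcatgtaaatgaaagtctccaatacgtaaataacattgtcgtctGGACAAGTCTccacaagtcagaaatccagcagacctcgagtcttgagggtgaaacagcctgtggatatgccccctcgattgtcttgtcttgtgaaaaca

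DDB2 held 2 decamers, starting at bases 6 and 17 after the start site. Its GCGGGGGCG match is on the minus strand and starts 61 bases before the start site. In FAS the decamer started at -122 and the GCGGGGGCG match at -56. The decamers of AEN and SESN1 started at -34 and -49. Positions count from the start site of the window shown. DDB2, FAS and SESN1 also have windows at other start sites, and those held none of the motifs searched. GCGGGGGCG occurred in 3 of 35 member windows (8.57%: BTG2, DDB2 and FAS) and in 5.07% of all. The cyclic AMP response element TGACGTCA occurred in 1, that of PPM1D (2.86%, against 1.85% of all). GCGTGGGCG, the other EGR1 form searched, and the CArG box of serum response factor occurred in none of the 35, and in 0.795% and 1.29% of all windows. The TATA box letters TATAAA also occurred in none of the 35, and in 11.5% of all windows. The forms of the EGR1 site can overlap each other. A match describes letters only, and many p53 sites lie outside such windows.

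No p53 target gene passed the test for a change with CXCL12. Of the 26 genes tested, 0 passed a limma adjusted p of 0.05 in either direction, where 0.0124% of the 16086 probe sets tested did (2, both higher). All 26 adjusted p-values lay between 0.996 and 0.999. At an unadjusted limma p under 0.05 there were 2 members, both higher (SERTAD1 and ZMAT3), against 2.72% of all probe sets in that direction, and 0 lower, against 2.01%. Non-overlapping groups, with every array of one beyond every array of the other, were found for 2 members, SERTAD1 and MDM4 (9.54% of all probe sets). Both were higher (5.05% of all), and 0 were lower (4.48%). For non-overlap in either direction the 2 of 26 were a smaller share than that of all probe sets, and for higher alone a larger one. The counts at the unadjusted p and for non-overlap each rest on 2 genes. The transcript of EGR1, an immediate early gene, was among the 2 that passed and is given as an example of a large difference. Its signal was 5.94, 5.91 and 6.12 in untreated replicates 1 to 3 and 8.13, 7.80 and 7.98 in CXCL12 replicates 1 to 3, a rise of 1.98.

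As a group the members lay slightly above 0. Of the 26, 18 had a positive and 8 a negative difference (69.2% positive, against 50.7% of all probe sets), with a median of 0.07 against 0.00 for all. Averaged over the 26 genes and set against the untreated mean, the untreated arrays stood at -0.12, 0.03 and 0.09 and the CXCL12 arrays at 0.13, -0.04 and 0.13. CXCL12 replicate 2 thus lay within the untreated range, and the groups overlapped. The median was 0.01 without untreated replicate 1 and 0.16 without CXCL12 replicate 2, and 0.06 with both of these arrays left out. For 20 of the 26 members the 95% interval of the difference lay within 1.5-fold either way, a smaller share than the 89.9% of all probe sets. The other 6 were MDM2, CDKN1A, SERTAD1, XPC, TP53INP1 and ZMAT3.

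**Figure D1:**
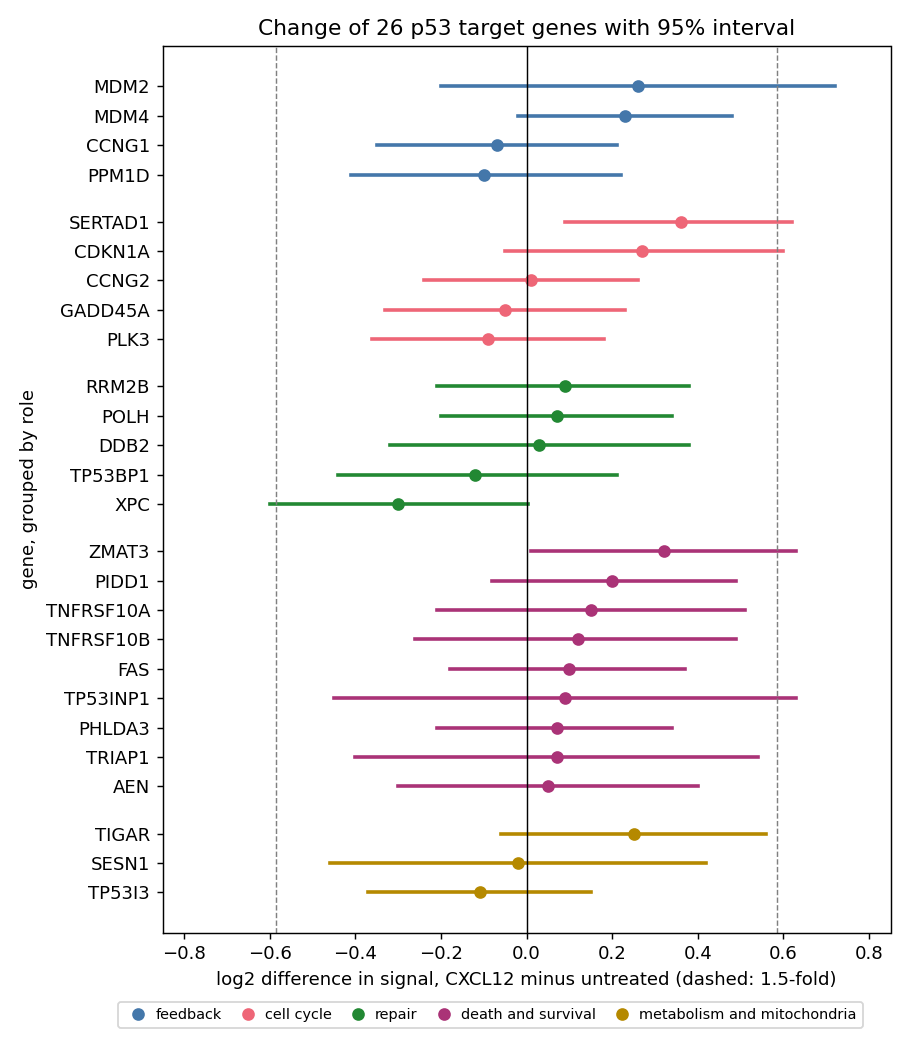
Log2 difference in signal (CXCL12 minus untreated, 3 arrays each) for the 26 tested p53 target genes, grouped and coloured by role. Points are limma estimates, bars their 95% intervals and dashed lines mark 1.5-fold. The intervals of SERTAD1 and ZMAT3 lie above 0 before adjustment for multiple tests, all others include 0, and all 9 points of the death and survival group lie right of 0.

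Among the feedback regulators, MDM2, the ubiquitin ligase that marks p53 for degradation, had wide values. Its signal was 7.92, 8.63 and 8.68 in untreated replicates 1 to 3 and 8.93, 8.28 and 8.79 in CXCL12 replicates 1 to 3. The lowest array of each group stood well apart and the groups overlapped. The difference was 0.26 (SE 0.21, 95% interval -0.20 to 0.72, n = 3 each, limma adjusted p = 0.996). It was 0.01 without untreated replicate 1 and 0.45 without CXCL12 replicate 2, the lowest and highest values with single arrays left out. MDM4, a relative of MDM2 that blocks p53's activating domain, was at 9.26, 9.38 and 9.30 without CXCL12 and 9.62, 9.49 and 9.52 with it. All CXCL12 arrays of MDM4 lay above all untreated ones by a small margin, a difference of 0.23 (SE 0.12, 95% interval -0.02 to 0.48). PPM1D, a phosphatase that removes activating phosphates from p53 and its kinases, had -0.10 (-0.41 to 0.22). CCNG1, a cyclin that brings a phosphatase to MDM2, had -0.07 (-0.35 to 0.21). Both had overlapping arrays.

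Of the 5 cell cycle members tested, 0 passed, where 0.0124% of all probe sets did. CDKN1A encodes p21, the cyclin-dependent kinase inhibitor through which p53 halts the cell cycle. Its signal was 5.43, 5.01 and 5.54 without CXCL12 and 5.48, 5.61 and 5.72 with it. Untreated replicate 2 was the low array, and untreated replicate 3 lay above CXCL12 replicate 1. The difference was 0.27 (SE 0.15, 95% interval -0.05 to 0.60, limma adjusted p = 0.996). It was 0.12 without untreated replicate 2 and, with untreated replicate 3 left out instead, 0.38. SERTAD1 was at 5.00, 5.20 and 4.95 without CXCL12 and 5.31, 5.43 and 5.48 with it. Its groups did not overlap, and its difference of 0.36 (SE 0.12, 95% interval 0.09 to 0.62, 1.28-fold) was the largest of the 26, with an unadjusted limma p of 0.0137 and an adjusted p of 0.996. Leaving out single arrays gave values from 0.31 to 0.43. SERTAD1 also had the lowest mean signal of the 26 (5.23), within the range of the markers of other cell types. CCNG2 had 0.01 (-0.24 to 0.26), GADD45A, a growth arrest protein that binds the replication clamp, -0.05 (-0.33 to 0.23), and PLK3, a stress-responsive polo-like kinase, -0.09 (-0.36 to 0.18). PLK2, another polo-like kinase, stayed dim in both groups, with 3.16, 3.21 and 2.96 without CXCL12 and 2.97, 3.24 and 3.03 with it. Of the 5 members also known to respond to growth signals, 3 were tested, 1 had a positive and 2 a negative difference, and 0 passed.

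**Figure D2:**
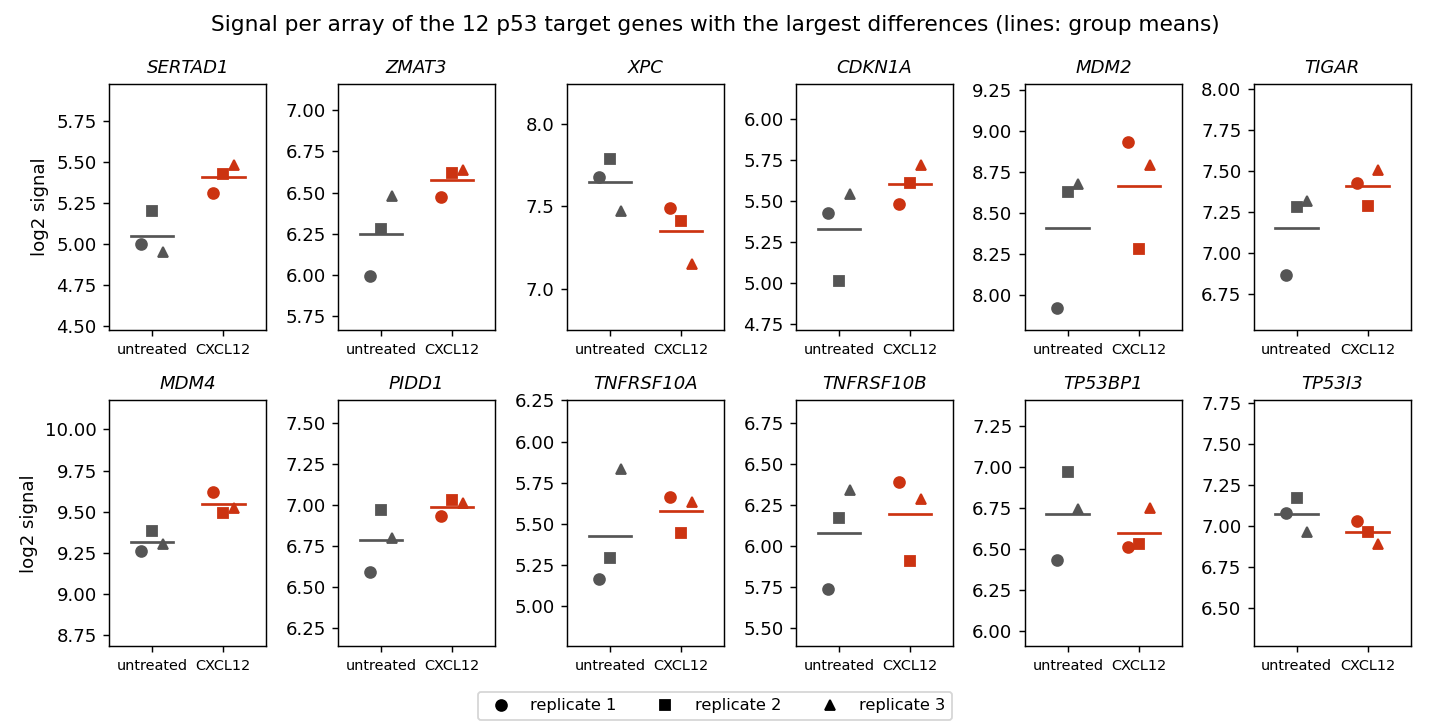
Log2 signal in each array for the 12 p53 target genes with the largest absolute differences, in order of size. Marker shapes give the replicate number, colours the group, lines the group means, and each vertical axis spans the same log2 range. The groups separate only for SERTAD1 and MDM4, and ZMAT3, MDM2, TIGAR, MDM4, PIDD1, TNFRSF10A, TNFRSF10B and TP53BP1 have their lowest value in untreated replicate 1.

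The repair genes held the lowest difference of the list. XPC, which recognises damaged bases for nucleotide excision repair, was at 7.68, 7.79 and 7.47 without CXCL12 and 7.49, 7.41 and 7.15 with it. CXCL12 replicate 1 lay just above untreated replicate 3, so the groups overlapped. The difference was -0.30 (SE 0.14, 95% interval -0.60 to 0.00243), with an unadjusted limma p of 0.0516 and an adjusted p of 0.996. It was -0.20 without CXCL12 replicate 3 and -0.38 without untreated replicate 3. TP53BP1, which steers the repair of double-strand breaks, was at 6.43, 6.97 and 6.74 without CXCL12 and 6.51, 6.53 and 6.75 with it. All CXCL12 arrays lay inside the untreated range, and the difference was -0.12 (-0.44 to 0.21). DDB2, the ultraviolet damage sensor whose window shown above holds both of its decamers, had 0.03 (-0.32 to 0.38). POLH, a polymerase that copies past damaged bases, had 0.07 (-0.20 to 0.34), and RRM2B, a ribonucleotide reductase subunit that supplies DNA building blocks, 0.09 (-0.21 to 0.38).

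The death and survival members all had positive differences, from 0.05 to 0.32 with a median of 0.10 over 9 genes, and 0 passed. Among all probe sets 50.7% had a positive difference and 0.0124% passed. Averaged over the 9, the untreated arrays stood at -0.22, -0.01 and 0.23 and the CXCL12 arrays at 0.22, -0.02 and 0.19 relative to the untreated mean, so the untreated arrays enclosed the CXCL12 arrays. With untreated replicate 1 and CXCL12 replicate 2 both left out, AEN, TP53INP1 and PHLDA3 were below 0 (-0.01, -0.01 and -0.05). These genes, TNFRSF10B and TRIAP1 also lay below 0 with at least 1 choice of a single array left out. ZMAT3, an RNA-binding zinc finger protein that regulates splicing, was at 5.99, 6.28 and 6.48 without CXCL12 and 6.47, 6.62 and 6.64 with it. Untreated replicate 3 lay just above CXCL12 replicate 1. The difference was 0.32 (SE 0.14, 95% interval 0.01 to 0.63), with an unadjusted limma p of 0.0416 and an adjusted p of 0.996. It was 0.19 without untreated replicate 1 and, with untreated replicate 3 left out instead, 0.44.

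PIDD1, a scaffold of a caspase-activating complex, was at 6.59, 6.97 and 6.80 without CXCL12 and 6.93, 7.03 and 7.01 with it, with untreated replicate 2 inside the CXCL12 range, and a difference of 0.20 (-0.08 to 0.49). That of PIDD1 was 0.10 without untreated replicate 1 and, with untreated replicate 2 left out instead, 0.30. The receptors of the death ligand TRAIL were spread widely. TNFRSF10A was at 5.16, 5.29 and 5.83 without CXCL12 and 5.66, 5.44 and 5.63 with it, a difference of 0.15 (-0.21 to 0.51) with all CXCL12 arrays inside the untreated range. It was 0.02 without untreated replicate 1 and, with untreated replicate 3 left out instead, 0.35. TNFRSF10B was at 5.74, 6.17 and 6.34 without CXCL12 and 6.39, 5.91 and 6.29 with it, a difference of 0.12 (-0.26 to 0.49) with overlapping groups. FAS, the receptor of the death ligand FASLG, had 0.10 (-0.18 to 0.37), with 0.01 without untreated replicate 2 and, with untreated replicate 3 left out instead, 0.16. PHLDA3, an inhibitor of the survival kinase AKT, had 0.07 (-0.21 to 0.34), and AEN, a nuclease that promotes apoptosis, 0.05 (-0.30 to 0.40). TRIAP1, an inhibitor of apoptosis, had 0.07 (-0.40 to 0.54).

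Of the metabolic and mitochondrial members, TIGAR, a phosphatase that lowers glycolytic flux, was at 6.87, 7.28 and 7.32 without CXCL12 and 7.43, 7.29 and 7.51 with it. Untreated replicate 1 was the low array, and untreated replicate 3 lay above CXCL12 replicate 2. The difference was 0.25 (SE 0.14, 95% interval -0.06 to 0.56), with 0.11 without untreated replicate 1 and, with untreated replicate 3 left out instead, 0.33. TP53I3, a quinone oxidoreductase, was at 7.08, 7.17 and 6.96 without CXCL12 and 7.03, 6.96 and 6.89 with it, a difference of -0.11 (-0.37 to 0.15) with overlapping groups. SESN1, a sestrin that restrains the growth kinase mTOR, had -0.02 (-0.46 to 0.42). SPATA18, which acts in mitochondrial quality control, stayed dim, with signals from 4.08 to 4.34 in untreated and from 4.13 to 4.22 in CXCL12 arrays.

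The members often shared their low arrays within a group. Untreated replicate 1 was the lowest untreated array for 15 of the 26 genes (57.7%, against 38.9% of all probe sets), and CXCL12 replicate 2 the lowest CXCL12 array for 16 (61.5%, against 38.2%). Both held for 11 genes (42.3%, against 19.3% of all): AEN, CCNG2, DDB2, MDM2, MDM4, POLH, RRM2B, TIGAR, TNFRSF10A, TNFRSF10B and TP53INP1. These counts were made after the values had been seen, and genes measured on the same arrays are not independent. The average deviation of the 26 from their group mean was -0.12 in both arrays, where all probe sets averaged 0.00 and -0.01. Over all probe sets tested, the deviations of these arrays correlated at 0.28, the highest value of any untreated array with any CXCL12 array. Their limma array weights of 0.45 and 0.74 were the lowest of the 6. Deviations shared by these arrays were thus also seen over all probe sets, but a lowest value in both was more frequent among the members. The cause was not tested.

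Some members were among the most variable probe sets within groups. TP53INP1, a nuclear protein that promotes p53 activation and autophagy, was at 4.70, 5.20 and 5.87 without CXCL12 and 5.62, 5.00 and 5.42 with it. Its pooled SD within groups of 0.47 was above that of 99.7% of probe sets tested, and its difference was 0.09 (-0.45 to 0.63). TRIAP1 was at 7.24, 7.02 and 7.50 without CXCL12 and 7.64, 6.74 and 7.57 with it (pooled SD 0.39, above 98.7%). CXCL12 replicate 2 was its lowest array. SESN1 was at 5.39, 5.34 and 5.13 without CXCL12 and 5.38, 4.73 and 5.68 with it (pooled SD 0.36, above 97.4%), with the wide values only in the CXCL12 group. MDM2 had a pooled SD of 0.39, above 98.5%. In all, 5 of the 26 were in the upper 10% of spread, the fifth being TNFRSF10B, and the median pooled SD was 0.18 for the members and 0.16 for all probe sets. At the other end, CCNG2 had 0.06 and MDM4 0.07.

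**Figure D3:**
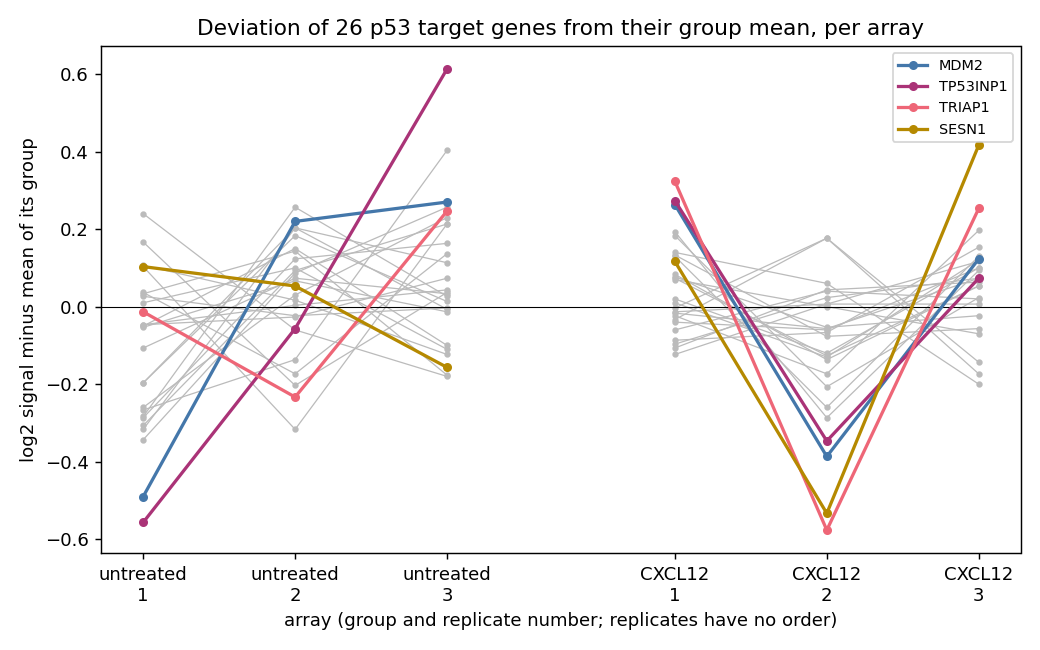
Log2 signal of each of the 26 tested p53 target genes minus its mean in that group, by array. Lines join the values of a gene within a group, and the 4 genes with the widest spread are coloured. Untreated replicate 1 is lowest for 15 genes and CXCL12 replicate 2 for 16.

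Other genes of the pathway gave no call either. Of 20 listed regulators of p53, 17 were tested and 0 passed, where 0.0124% of all probe sets did. Of the 17, 7 were positive and 10 negative (41.2% positive, against 50.7% of all probe sets), with a median of -0.03. TP63 had no probe set named here. TP73, a p53 family member, was near the dim limit at 5.01, 4.63 and 4.69 without CXCL12 and 4.65, 5.07 and 4.49 with it, a difference of -0.04 (-0.39 to 0.32). The damage kinases ATM and ATR had 0.19 (-0.15 to 0.53) and 0.19 (-0.10 to 0.49), and CHEK2, a kinase that ATM activates, -0.03 (-0.37 to 0.31). ATM was 0.04 without untreated replicate 2 and, with untreated replicate 1 left out instead, 0.34. ATR was 0.10 without CXCL12 replicate 1 and 0.29 without untreated replicate 1. USP7, a deubiquitinase of MDM2 and p53, had 0.14 (-0.14 to 0.42), and PPP1R13L, an inhibitor of p53, -0.19 (-0.48 to 0.09). All 17 intervals lay within 1.5-fold.

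Of 35 further p53 targets, 31 had a probe set, 6 were dim, and 0 of the 25 tested passed, where 0.0124% of all probe sets did. Of the 25, 15 were positive and 10 negative (60.0% positive, against 50.7% of all probe sets), with a median of 0.01. That median was -0.02 without untreated replicate 1 and 0.05 without CXCL12 replicate 2. BBC3 had no probe set named here. BAX, a pore-forming death protein of mitochondria, was at 8.28, 8.31 and 8.22 without CXCL12 and 8.28, 8.23 and 8.38 with it. Its arrays lay close together, with a difference of 0.02 (-0.23 to 0.27). PMAIP1, which encodes the BCL2 antagonist NOXA, was at 7.20, 7.81 and 7.68 without CXCL12 and 8.07, 7.64 and 7.87 with it, a difference of 0.30 (-0.08 to 0.67), with 0.11 without untreated replicate 1 and, with untreated replicate 2 left out instead, 0.42. IER5, which is both a p53 target and an immediate early gene, was at 5.13, 6.34 and 5.92 without CXCL12 and 6.19, 6.16 and 6.40 with it. Untreated replicate 1 was again the low array. The difference of IER5 was 0.46 (-0.06 to 0.97), with 0.13 without that array and, with untreated replicate 2 left out instead, 0.73. APAF1, the core of the apoptosome, had -0.22 (-0.60 to 0.17), and TRAF4, an adaptor protein, 0.25 (-0.09 to 0.59). APAF1 was -0.40 without untreated replicate 1 and, with untreated replicate 2 left out instead, -0.09, and TRAF4 was 0.41 without untreated replicate 2 and, with untreated replicate 3 left out instead, 0.16.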

How the data were processed

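RNA of 6 Jurkat samples was measured on 6 Affymetrix arrays. The deposited table holds log2 signals per probe set, made by the authors with RMA (background subtraction, normalization between arrays and summary over probes) and the Transcriptome Analysis Console, per the submitters' processing notes. Their versions, their settings and the genome build were not stated in what was used here. RMA makes array distributions alike, so a shift of all transcripts cannot be seen. Scanner files were not used here.

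A linear model of group (limma 3.58.1, R 4.3.3, moderated with eBayes, two-sided, 3 against 3 arrays, no covariates) was fitted to the deposited values after the lower 25% of the 21448 probe sets by mean had been left out. Benjamini-Hochberg adjustment ran over all 16086 probe sets, and the threshold was 0.05. The fit was tested on simulated data in which 200 of the 16086 probe sets were raised. It recovered 39.4% of differences of 0.5 and 93.3% of those of 0.75, and 6.87% of its calls were false. Smaller differences were not simulated, and those of the members ran only from -0.30 to 0.36. The simulated noise was independent between probe sets. With 200 raised probe sets the adjusted threshold is also easier to pass than in the real fit, which made 2 calls. Recovery in the real data may therefore be lower, and these rates do not exclude such differences among the members.

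The members and lists were chosen with earlier results of these data known. All members are named. Values per array are given for CDKN1A, MDM2 and the 12 members with the largest absolute difference, and for TP73, BAX, PMAIP1, IER5, PLK2, TP53INP1, TRIAP1 and SESN1, the last 3 chosen after seeing their spread. Of the other lists, named in any case were TP63, TP73, BAX, BBC3, PMAIP1, ATM and CHEK2, with the 4 genes of smallest p per list; another gene of that rule is not reported here. Same-numbered arrays were not taken as pairs: their deviations from the group means correlated at -0.19, -0.11 and 0.11.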

Additional observations from a re-analysis of the deposited data

How the results depend on the processing

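The alternatives were no filter on dim probe sets, the lower 50% left out, quantile normalization again, median centring, cyclic loess, the replicate block, a trended robust prior, array weights, an unadjusted threshold, and each array left out in turn. Leaving out untreated replicate 1 and CXCL12 replicate 2 together was chosen after seeing the data. Averaging the probe sets of a gene could not alter the members, which have 1 probe set each. In each of these fits 0 members passed the adjusted threshold (lowest limma adjusted p 0.643), the replicate block included (0 members, median 0.0684, 2 probe sets in all). The unadjusted threshold was applied to the main fit only, where 2 members passed it. The filter on the lower 50% removed 7 of the 26, among them SERTAD1 and CDKN1A. The count over all probe sets became 1 with no filter, median centring or cyclic loess, 4 with array weights and 761 without adjustment, and ran from 1 to 2 with single arrays left out (1 without untreated replicate 2 or any CXCL12 replicate). The members' median ran from 0.0142 to 0.156 with single arrays left out, and that of the p53 regulators from -0.0568 to 0.021 (0.021 without untreated replicate 1, 0.00697 without CXCL12 replicate 1 and, with untreated replicate 2 left out, 0.000143), with 0.001 under array weights. That of the further p53 targets ran from -0.0227 to 0.0489, was below 0 also without CXCL12 replicate 3 (-0.00533) and with median centring (-0.0125), and was 0.0805 with both named arrays left out.

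Signs of 14 of the 26 tested members turned in at least 1 fit and those of 12 in none, all short of the threshold. With array weights CCNG2 was -0.00182, DDB2 -0.025, TP53INP1 -0.0567 and SESN1 0.0971, and with median centring CCNG2 was -0.0104. With both named arrays left out CCNG1 was 0.00749, GADD45A 0.0504, PLK3 0.0293, AEN -0.00707, TP53INP1 -0.0147, PHLDA3 -0.0454 and SESN1 0.295. Single arrays left out gave ranges across 0. These were -0.188 to 0.0209 for PPM1D, -0.174 to 0.0108 for CCNG1, -0.149 to 0.0379 for GADD45A, -0.0251 to 0.0377 for CCNG2, -0.122 to 0.158 for DDB2 and -0.0122 to 0.187 for RRM2B. They were -0.254 to 0.0111 for TP53BP1, -0.0566 to 0.26 for TNFRSF10B, -0.111 to 0.153 for AEN, -0.186 to 0.402 for TP53INP1, -0.0223 to 0.136 for PHLDA3, -0.0955 to 0.357 for TRIAP1 and -0.233 to 0.244 for SESN1. Ranges short of 0 were 0.01 to 0.13 for POLH, -0.15 to -0.03 for PLK3 and -0.16 to -0.06 for TP53I3. Outside the members, USP7 ran from 0.06 to 0.19, PPP1R13L from -0.29 to -0.13, TP73 from -0.205 to 0.0858, BAX from -0.0164 to 0.0579 and CHEK2 from -0.169 to 0.0841. The cause of these turns was not tested. With 3 arrays a group, the median 95% interval of a member reached 0.30 to either side, which limits what smaller differences can show.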
